A study of Arabidopsis thaliana with 8 samples.

Results

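The values described here belong to 2 nuclear genes of mitochondrial proteins, AT4G02580, which encodes a subunit of respiratory complex I, and GLDH (locus AT3G47930), which encodes galactonolactone dehydrogenase. They are 2 of the 691 genes that have a probe of their own, meaning a probe to which the platform's annotation gives exactly 1 gene. There are 692 such probes among the 3439 of the array, and AT4G02580 and GLDH have 1 each. The genes were chosen by name with earlier results of the same arrays known, in which AT4G02580 had a pattern of values at 0 and GLDH a small difference between the light levels. Their differences between the light levels are therefore given as a description, with no test. The RNA was total RNA of wild-type Arabidopsis thaliana (Landsberg ecotype), and the plants spent 48 hours in red light at 200 µE or at 20 µE, with 4 single-channel arrays for each level. No dark or white-light arrays were compared. The labels give neither the tissue, the age of the plants nor the light before the 48 hours, and they give µE with no area or time unit. The 4 replicates of a level are numbered in the labels, but nothing says that they came from separate plants, so the spread between them may be technical.

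Complex I is the entry point of electrons from NADH into the mitochondrial respiratory chain, and it pumps protons across the inner membrane. AT4G02580 encodes a subunit of its matrix arm, the part that takes up NADH, and the protein carries an iron-sulfur cluster. GLDH sits at the inner mitochondrial membrane, performs the last step of ascorbate synthesis and passes the electrons to cytochrome c. In plants GLDH is also found on assembly intermediates of complex I and is needed for the complex to form. Leaves in light depend on mitochondrial respiration beside photosynthesis, and ascorbate is a main antioxidant of the chloroplast.

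The deposited values are intensities on a linear scale on which the brightest probes of every array stand at 100. Each array has a value for every probe, and 476 to 540 probes per array were listed at 0 at 200 µE, against 573 to 604 at 20 µE. The median of the probes above 0 was 0.513 to 0.578 at 200 µE and 0.267 to 0.345 at 20 µE. This shift between the light levels runs through the whole array. The deposited values of the 2600 probes with no 0 had a median log2 difference of 0.82, and any deposited value of a gene has to be read against it. For this reason values are also given after quantile normalization, which makes the distribution of values the same on all arrays, and as the share of an array's probes that are dimmer than the gene. That share is used to follow 1 probe from array to array, not to compare the RNA levels of different genes. In the limma fit over all normalized probes, 235 probes (6.83%) had an adjusted p under 0.05, 79 (2.30%) higher and 156 (4.54%) lower at 200 µE. The split was 883 and 44 in the deposited values and 36 and 222 with median centring. Among the probes with exactly 1 gene, 37 (5.35%) passed. This fit does not pair the arrays. With the replicate number as a block, 619 probes (18.0%) passed, 124 (17.9%) of those with exactly 1 gene.

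AT4G02580 had a signal on every array at 200 µE and was listed at 0 on every array at 20 µE. Its deposited intensities were 0.356, 0.102, 0.139 and 0.102 on replicates 1 to 4 at 200 µE, against 0 on all 4 replicates at 20 µE. The light levels did not overlap, as was the case for 39.5% of the probes above 0 on some array, and replicate 1 at 200 µE stood well above the other three. The 200 µE mean was 0.174 ± 0.122 (SD, n = 4), and without replicate 1 it was 0.114 ± 0.0213 (SD, n = 3), so that this array moved the mean 1.53-fold. On that array the gene was 2.56-fold brighter than on the next brightest. GLDH did not share this high value, since its replicate 1 lay within the range of its other 200 µE arrays. Because RNA was taken from whole samples, fewer cells of a type and less RNA per cell cannot be told apart for either gene.

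**Figure D1:**
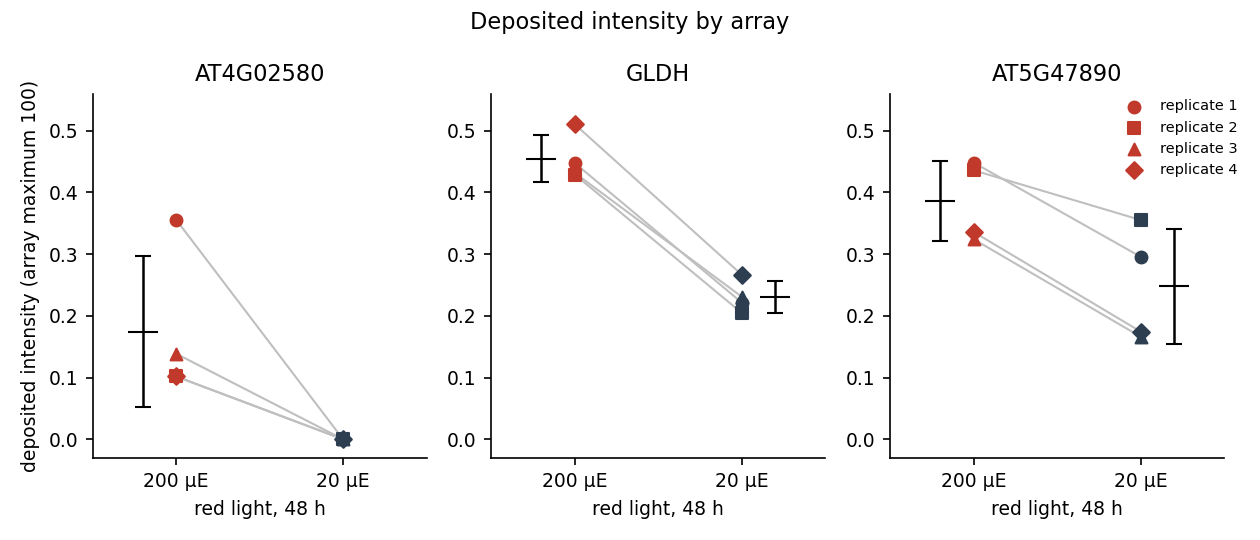
Deposited intensity of AT4G02580, GLDH and the complex I gene AT5G47890 on each array (y axis, linear, array maximum 100) at 200 µE and 20 µE red light (x axis), with grey lines joining arrays of the same replicate number and black bars showing the mean ± SD of 4 arrays where the gene was above 0. AT4G02580 is at 0 on all 20 µE arrays and at 0.102 to 0.356 at 200 µE, while GLDH lies at 0.429 to 0.51 and 0.205 to 0.266.

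The AT4G02580 signal at 200 µE was dim on 3 of its 4 arrays. Among the probes above 0 on the same array, 33.8% were dimmer than AT4G02580 on replicate 1, but 5.62%, 9.65% and 6.61% on replicates 2, 3 and 4. On replicate 2 its value of 0.102 stood beside a 5th percentile of 0.0946 for the positive values of that array, so the gene lay only just above the dimmest 5% there. After quantile normalization the order of the arrays was the same at the top, with 0.278 on replicate 1 and 0.0691, 0.0873 and 0.0623 on replicates 2 to 4. No fold is given, because a listed 0 is not a measured amount. The lowest values above 0 on the 20 µE arrays ran from 2.87e-07 to 0.000287, and the 5th percentiles of their positive values from 0.0350 to 0.0423. Those arrays were dimmer as a whole, so these values cannot be set directly against AT4G02580 at 200 µE. The sources used here do not say how the authors' processing turned a spot into a 0.

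The pattern of AT4G02580 was uncommon on the array. Of all probes, 15 (0.436%) were at 0 on every 20 µE array and above 0 on every 200 µE array, and the reverse was seen on 1 probe. AT4G02580 was the only one of the 692 probes with exactly 1 gene (0.145%) that had it. These shares describe the pattern for which the gene was chosen and are no test of it. The mean intensities of the 15 probes at 200 µE ran from 0.0425 to 0.565, and AT4G02580 held the middle place among them, with 7 brighter. At the other end of the zero patterns, 320 probes were at 0 on all 8 arrays, 66 of them with exactly 1 gene.

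Dim probes among those above 0 on all 200 µE arrays were more often at 0 at 20 µE than brighter ones. By this choice of probes, zeros could fall only on the 20 µE arrays. The classes therefore do not show at which light level dim probes were more often at 0. Among the 241 probes that were above 0 on all 200 µE arrays with a mean there of 0.1 to 0.2, the class that holds AT4G02580, 2 were at 0 on all 20 µE arrays (0.83%), and 20.3% were at 0 on at least 1 of them. The next brighter class, from 0.2 to 0.4, held 5 such probes of 617 (0.81%), with 11.3% at 0 on at least 1 array. Below 0.1 the share at 0 on all 20 µE arrays was larger, 5 of 58 probes (8.62%) between 0.05 and 0.1 and 1 of 10 below 0.05. No probe with a 200 µE mean of 0.8 or more was at 0 on all 20 µE arrays. In the class of AT4G02580, the 192 probes above 0 on every array had a median 20 µE mean of 0.0904. The brightness classes were set after the values had been seen, and how far the dimmer 20 µE arrays alone account for the zeros of AT4G02580 was not tested.

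**Figure D2:**
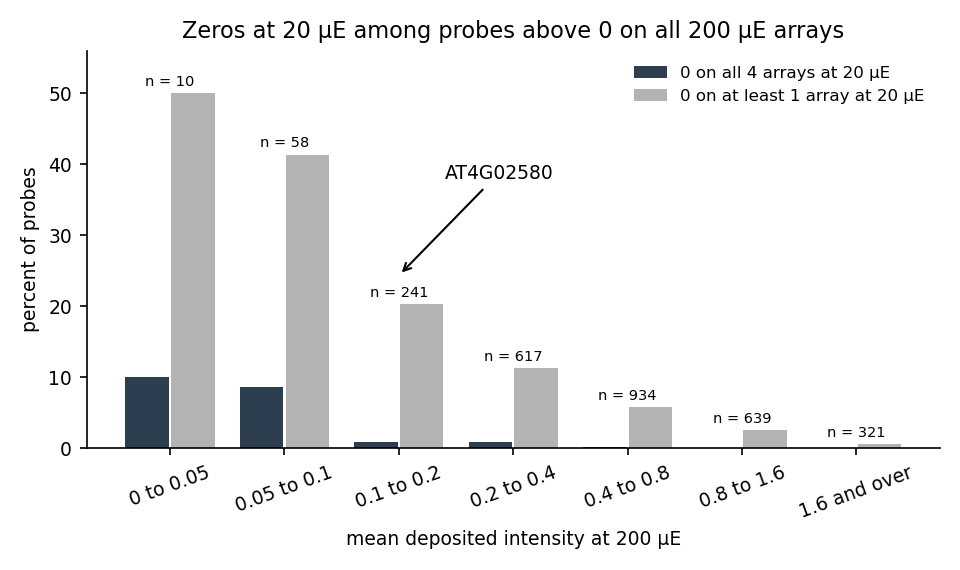
Percent of probes at 0 on all 4 arrays (dark bars) or on at least 1 array (grey bars) at 20 µE, among probes above 0 on all 4 arrays at 200 µE, in classes of their mean deposited intensity at 200 µE (x axis, class edges as labelled, with the number of probes above the bars). The arrow marks the class of AT4G02580, where 0.83% of 241 probes were at 0 on all 20 µE arrays and 20.3% on at least 1.

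Among the other probes with exactly 1 gene, 5 had a zero pattern that differed from that of AT4G02580 on 1 array. AT4G21770 and AT2G21530, a gene of the forkhead-associated domain family, were at 0 on all 20 µE arrays and also on 1 array at 200 µE, replicate 4 and replicate 2. Their 200 µE values reached 0.459 and 0.113. The other three, AT1G08845, AT3G09850 and AT4G12270, were above 0 on all 200 µE arrays and on 1 array at 20 µE. AT1G08845 had its single 20 µE value, 1.10 on replicate 3, above its highest value at 200 µE, 0.756. For AT3G09850 the single 20 µE value was 0.125 within a 200 µE range of 0.0149 to 0.248, and for AT4G12270 it was 0.101 below a 200 µE range of 0.128 to 0.67. Values within a light level thus varied widely for each of these genes. The spread of AT4G02580 at 200 µE came mostly from replicate 1.

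GLDH was above 0 on all 8 arrays, and as deposited it had a log2 difference of 0.98, higher at 200 µE, where the median probe differed by 0.82. Its deposited intensities were 0.447, 0.429, 0.431 and 0.51 on replicates 1 to 4 at 200 µE, against 0.221, 0.205, 0.231 and 0.266 on the same numbers at 20 µE. The light levels did not overlap here either, as was the case for 39.5% of the probes above 0 on some array. The means were 0.454 ± 0.0381 at 200 µE and 0.231 ± 0.0261 at 20 µE (SD, n = 4 each). Replicate 4 had the highest GLDH value at both levels, and replicate 2 the lowest.

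The same-number ratios of GLDH, 200 µE over 20 µE, were 2.02, 2.10, 1.87 and 1.91 for replicates 1 to 4. The median ratios of all probes above 0 on every array were 1.85, 1.84, 1.63 and 1.63 in the same pairs. Both were larger in replicates 1 and 2 than in replicates 3 and 4. GLDH had a larger deposited difference than 58.6% to 64.8% of these probes in the 4 pairs. It was higher at 200 µE in 4 of 4 pairs, as 77.5% of the probes were. Against the median probe, the log2 difference of GLDH was larger by 0.13, 0.19, 0.20 and 0.23. The deposited shift was larger for dim probes than for bright ones. Against the median of the 650 probes in its own class of mean brightness, the second dimmest of 4 equal classes, GLDH was larger by 0.05, 0.10, 0.07 and 0.10.

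After quantile normalization the difference of GLDH between the light levels was close to 0. The normalized intensities were 0.359, 0.339, 0.313 and 0.364 on replicates 1 to 4 at 200 µE, against 0.362, 0.340, 0.309 and 0.347 at 20 µE. The light levels overlapped, where 15.5% of the probes above 0 on some array had levels that did not, and 2 of 4 same-number differences were positive. The mean log2 difference was 0.02 ± 0.07 (SE of the limma fit, n = 4 each; SE 0.02 with the replicate block), with same-number differences of −0.01, −0.01, 0.02 and 0.07. Of the 2600 probes above 0 on all arrays, 3.27% had a smaller absolute difference, and the median absolute difference of these probes was 0.33. The middle 50% of them had log2 differences from −0.39 to 0.27. GLDH was chosen with its small difference known, so its place among these probes describes the selection and is no test of it.

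**Figure D3:**
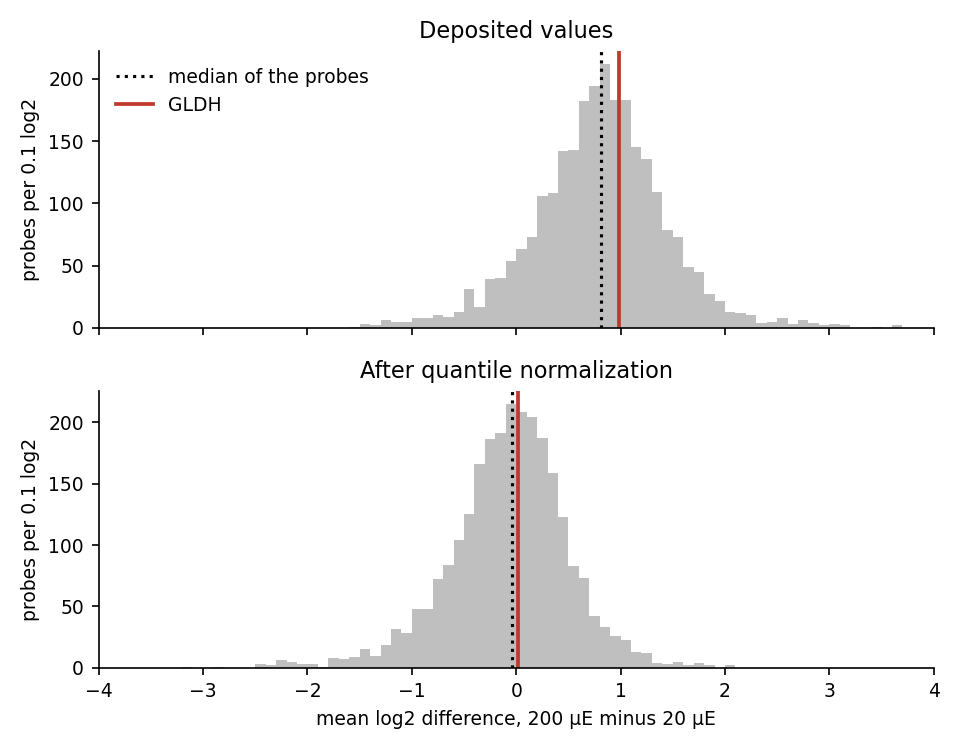
Number of probes (y axis) by mean log2 difference, 200 µE minus 20 µE (x axis), for the 2600 probes above 0 on all arrays, in the deposited values (upper panel) and after quantile normalization (lower panel). The red line marks GLDH at 0.98 and 0.02, and the dotted line the median of the probes at 0.82 and −0.04.

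The place of GLDH within its own array does not depend on the scale of the array. Quantile normalization rests on the same order of probes, so the place among all probes is no separate check on the normalized values. At 200 µE, 52.2%, 50.2%, 47.7% and 52.6% of all probes were dimmer than GLDH on replicates 1 to 4, against 52.5%, 50.4%, 47.4% and 51.0% at 20 µE. GLDH thus kept to the middle of all 8 arrays, and its lowest place was on replicate 3 at both light levels. Relative to the median of the positive values, GLDH was at 0.837 ± 0.0544 at 200 µE and 0.762 ± 0.0617 at 20 µE (SD, n = 4 each). These ranges overlapped, but the multiple was higher at 200 µE in 4 of 4 same-number pairs. The share of dimmer probes among those above 0 was also higher in 4 of 4 pairs, with 43.3%, 41.0%, 39.3% and 44.7% at 200 µE, against 42.4%, 39.8%, 36.8% and 40.9% at 20 µE. Among all probes it was higher in 2 of 4 pairs. The measures differ in that probes at 0 enter only the last, and more probes were at 0 at 20 µE. How many of all probes were higher in 4 of 4 pairs by the multiple or by the share among positive probes was not computed. These counts therefore cannot be read as particular to GLDH. AT4G02580 moved more within the array, with 44.1% of all probes dimmer on replicate 1 and 20.4%, 22.2% and 19.9% on replicates 2 to 4 at 200 µE.

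**Figure D4:**
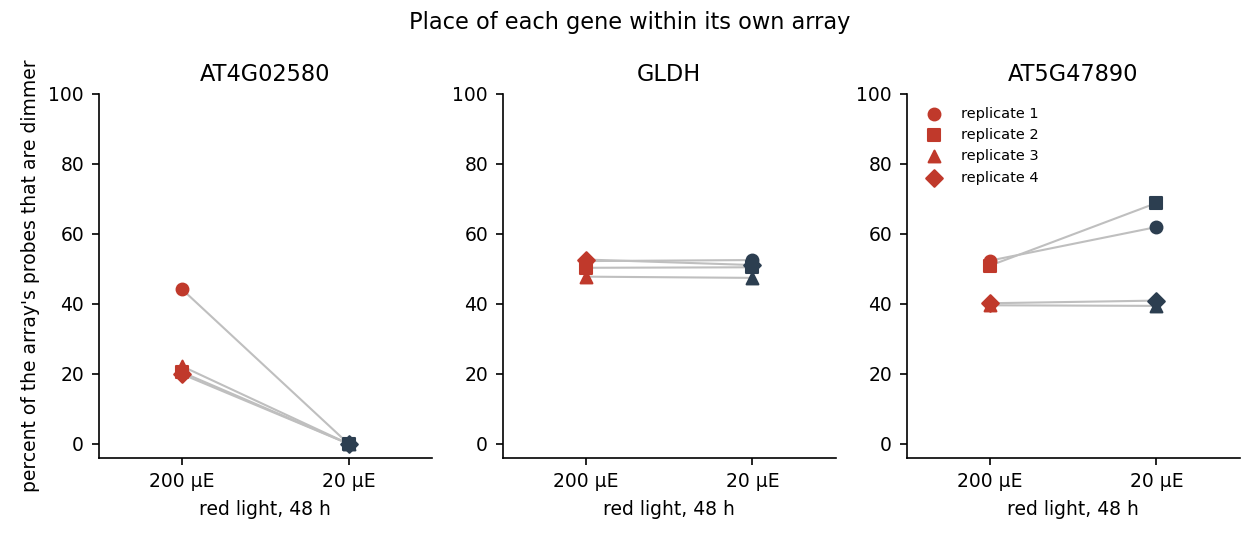
Percent of the probes of an array that are dimmer than AT4G02580, GLDH or AT5G47890 (y axis) on each 200 µE and 20 µE array (x axis), with grey lines joining arrays of the same replicate number. GLDH lies between 47.4% and 52.6% on all 8 arrays, AT4G02580 between 19.9% and 44.1% at 200 µE and at 0 at 20 µE, and AT5G47890 is higher in replicates 1 and 2 at both light levels.

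The spread of GLDH within a light level was small. That spread was not itself used to choose GLDH, but a small spread can make a small difference between the levels more likely. It is therefore not independent of the choice of GLDH. The pooled SD of its normalized log2 values was 0.10, against a median of 0.41 over the 2600 probes above 0 on all arrays, and 39 of these probes had a smaller SD. Among the 650 probes of its own class of mean brightness, 4 had a smaller SD and the median SD was 0.45. The arrays of replicates 1 and 2 stand apart from those of replicates 3 and 4 at both light levels, and GLDH moved little between these sets. Replicates 3 and 4 minus replicates 1 and 2 gave a log2 difference of −0.05 at 200 µE and −0.10 at 20 µE. The median absolute difference between the sets was 0.52, and 7.88% of the probes had a smaller one than GLDH. The difference between the light levels was −0.01 in replicates 1 and 2 and 0.04 in replicates 3 and 4. The sets come from the data and are no groups in the labels. The difference between them is part of the spread within a light level, not a separate result.

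The pattern of GLDH over the 8 arrays was compared with that of the other 536 probes with exactly 1 gene and a value above 0 on every array. The 5 most like it were AT5G65360, a histone gene, SPL, a transcriptional regulator of sporocyte formation, AT5G36470, AT4G07670 and AT3G56290, with Pearson's r of 0.92, 0.90, 0.87, 0.85 and 0.84 over 8 arrays in normalized log2 values. These coefficients are the highest of 536 and describe the selection. All 6 genes had their lowest normalized value on replicate 3 at both light levels. For AT5G65360 that value was 0.380 at 200 µE, where the other arrays were at 0.631 or more, and 0.335 at 20 µE, where the others were at 0.660 or more. GLDH lay closer to its other arrays there, at 0.313 and 0.309. Over the 6 arrays of the other replicate numbers the coefficients were 0.74 for AT5G65360, 0.32 for SPL, −0.05 for AT5G36470, −0.28 for AT4G07670 and 0.16 for AT3G56290, so the likeness of all but AT5G65360 rests on the replicate 3 arrays. The histone gene belongs to a family of closely similar copies that the probe may not tell apart.

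**Figure D5:**
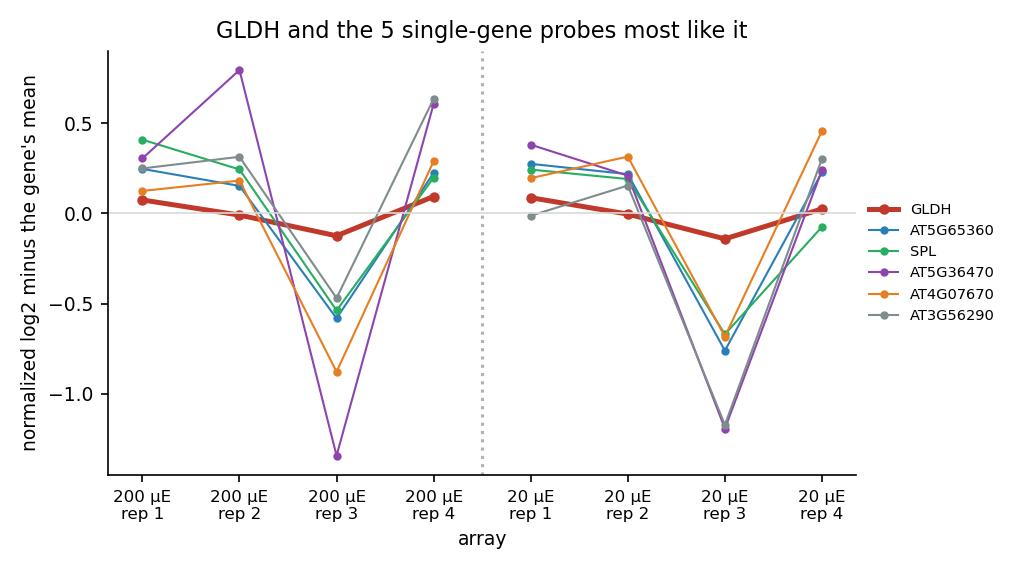
Normalized log2 value minus the gene's own mean over 8 arrays (y axis) on each array (x axis, 200 µE left of 20 µE) for GLDH and the 5 probes most like it. Lines join the arrays of a gene for reading only; all 6 genes are lowest on replicate 3 at both light levels, GLDH by the smallest amount.

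The other genes of these pathways were barely covered by probes with exactly 1 gene. Of 46 further complex I genes 1 was measured, AT5G47890, which encodes the B8 subunit. Of 41 genes of the other respiratory complexes and alternative enzymes 1 was measured, AT5G47030, which encodes the delta subunit of mitochondrial ATP synthase. None of the 9 further ascorbate synthesis genes and none of the 19 genes of ascorbate recycling and glutathione had such a probe. AT5G47030 was listed at 0 on all 8 arrays, as 320 probes were, so it has no difference to report or test. AT5G47890, the 1 listed gene with a value, did not pass the limma threshold. No statement about complex I or the ascorbate pathway as a group can rest on these probes.

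AT5G47890 did not pass the test between the light levels, and its values were higher in replicates 1 and 2 than in replicates 3 and 4 at both levels. Its deposited intensities were 0.448, 0.436, 0.324 and 0.336 on replicates 1 to 4 at 200 µE, against 0.296, 0.355, 0.166 and 0.174 at 20 µE. The light levels overlapped. Normalized, it had 0.296 ± 0.0657 at 200 µE and 0.385 ± 0.171 at 20 µE (SD, n = 4 each), and the log2 difference was −0.30 ± 0.35 (SE; limma's adjusted p = 0.767). The difference was −0.58 in replicates 1 and 2 (limma, adjusted p = 0.130) and −0.01 in replicates 3 and 4 (limma, adjusted p = 0.929), and in the deposited values it was 0.70 (limma, adjusted p = 0.124). Replicates 3 and 4 minus replicates 1 and 2 gave AT5G47890 a normalized log2 difference of −0.56 at 200 µE and −1.12 at 20 µE, where GLDH had −0.05 and −0.10. Neither AT5G47890 nor GLDH showed the zeros of AT4G02580 at 20 µE, and whether AT4G02580 differs in this from other complex I genes could not be tested with 1 further measured gene.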

How the data were processed

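The deposited file holds 1 intensity for each probe on each array. The sources used here do not state how the authors made these intensities, which make of array was used or any genome build, and no coordinate is printed. Groups and replicate numbers came from the labels. Gene names come from the annotation of the platform, where 692 probes have exactly 1 gene and 870 have more. The TAIR10.1 gene table, used only for names, held 690 of these 692. The members and the lists of 115 further genes were chosen with earlier results of these data known.

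A value of 0 was replaced by the array's lowest value above 0, followed by quantile normalization between arrays and log2. Setting the floor first keeps probes at 0 on all arrays at a difference of 0. The fit used lmFit and eBayes of limma (version 3.58.1, R 4.3.3) on all probes (4 arrays against 4, two-sided, Benjamini-Hochberg over 3439 probes, threshold 0.05). It was tested on simulated data with independent noise between arrays and no probe at 0 on only some arrays. The simulation thus does not cover arrays that deviate together or mixed values at 0, both of which these data have. Differences are 200 µE minus 20 µE. The number of arrays limits the precision.

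Same-numbered arrays deviated together (correlations of 0.707 to 0.735 in 4 pairs, against −0.623 to 0.462 in the others), so a fit with the replicate number as a block is given beside the unpaired one where counts or calls differ. This pairing rests on the values, since no label states it. No arrays held identical values.

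Besides the members and all listed genes, the text names the 5 probes that correlate best with GLDH and those whose zeros differ from AT4G02580 on at most 1 array. A list of genes with a mitochondrial annotation text had 0 members. Alternatives were other normalizations and floors, filters, a replicate block, single sets of replicates and leaving out arrays.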

Additional observations from a re-analysis of the deposited data

Results flagged for a closer look

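AT4G02580 was higher on replicate 1 at 200 µE, with a deposited intensity of 0.356 against a mean of 0.114 on the other 3 arrays of that level. The gap to the next array made up 0.855 of the range of the group, above Dixon's critical value for 4 samples. Of 10 groups of 4 values examined this was the 1 past the limit. Chance passes the limit in about 1 of every 20 groups, so 1 flag among 10 groups is no rare outcome. In normalized log2 values the gap made up 0.774 of the range, below the critical value. No explanation was tested.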

How the results depend on the processing

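AT4G02580 exceeded the 5th percentile of the array's positive values on all 4 arrays at 200 µE. Leaving out arrays cannot change its pattern of zeros. Its 200 µE mean ran from 0.114 to 0.199 when single 200 µE arrays were left out, a check added after the values were seen. The log2 difference of GLDH was 0.98 in the deposited values, which hold the shift of the whole array. Under the other settings it ran from −0.03 to 0.07, within the spread between replicates. Its sign turned with replicates 1 and 2 alone and when 200 µE replicates 1 or 4 or 20 µE replicate 3 were left out. Less the median of the probes above 0 on all arrays, the GLDH difference was above 0 in every setting, from 0.0075 to 0.16. With median centring it was then 0.16 in place of 0.03. That median leaves out the probes with values at 0, which were more frequent at 20 µE. Several settings gave the same value, and all use the same 8 arrays or part of them. GLDH was chosen with this contrast known, so the shared sign across settings is no test. AT5G47890 reversed to 0.70 in the deposited values, and no setting made it pass. The count of 235 probes became 927 in the deposited values, 97 with a floor after normalization, 146 without the dimmest 25% of probes, 156 without probes at 0 on any array, 619 with the replicate block, 611 in replicates 3 and 4 alone, and 140 to 174 when single arrays were left out. The 37 probes with 1 gene became 190, 12, 23, 27, 124 and 117 under these settings, 73 in replicates 1 and 2 alone, and 19 to 30 when single arrays were left out. With the block AT5G47890 still did not pass (limma, adjusted p = 0.292). The cause of these changes was not tested, except that fewer probes or arrays enter some of the fits. Signals near the dim end limit what a 0 can show.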
